A study of Rattus norvegicus with 6 samples.

Results

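The microRNAs (miRNAs) described here are those of the Clcn5 cluster, named miR-532, miR-188, miR-362, miR-501 and miR-500. They were taken by name from the count table, both arms of each hairpin, which gave 10 names from 5 hairpins among the 910 names listed (rno-miR-532-5p, rno-miR-532-3p, rno-miR-501-3p, rno-miR-362-3p, and their like, written below without the species prefix). The rule for names also covered miR-502 and miR-660, but the count table held no rat name of either. Of the 10 names, 8 had at least 1 count and 2 (miR-188-3p and miR-501-5p) had none in any library. The cluster as a whole was selected on the log2 fold change of miR-501-3p in these counts, a rise in the Na2SeO3 group that was already known, while its other members were taken by name alone. The values of miR-501-3p are therefore a description with no test, and the question put to the other members was whether they rose with it.

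The small RNA came from the lens capsules of 6 Sprague Dawley rat pups, 3 in the control group and 3 in the Na2SeO3 group. The control group received saline under the skin of the neck on days 3, 5, and 7. The Na2SeO3 group received sodium selenite at 20 μmol/kg on the same days, a treatment that clouds the lens of young rats and serves as a cataract model. The methods give an age of 8 days for the pups and day 15 for taking the lenses. The sex of the pups is not given in the sources used here. Each library was made from 1 lens of 1 rat, so the spread within a group is that between animals. The total RNA was read with single-ended reads of 50 bases. Summed counts were 1806596 to 2829903 in the control libraries and 663096 to 968151 in the Na2SeO3 libraries. All 4 miRNAs fixed as marks of lens and eye surface (miR-184, miR-204-5p, miR-205, and miR-26a-5p) were counted in every library, and their summed level was 128413 to 143627 CPM in the control group and 74717 to 87434 CPM in the Na2SeO3 group. CPM is counts per 1000000 counts of the library after TMM scaling, which assumes that the bulk of miRNAs keep their level. The 4 muscle miRNAs (miR-1-3p, miR-133a-3p, miR-133b-3p, and miR-206-3p) were also counted in every library, at 6374 to 8151 CPM in sum in the control group and 12846 to 14196 CPM in the Na2SeO3 group. The part of other tissue in the results below was not tested. In such bulk samples fewer cells of a type and less RNA per cell cannot be told apart.

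A miRNA hairpin is cut into a 5p and a 3p arm, and the arm that is kept guides silencing of mRNAs that match its seed, bases 2 to 8. Hairpins that lie close together on one strand can be made from one long transcript, and hairpins inside a protein-coding gene can be made from that gene's transcript or from their own. Clcn5 codes for the chloride and proton exchanger ClC-5 of endosomes, best known from the kidney. In the RefSeq annotation of the rat assembly GRCr8 all 5 hairpins lie within the span of Clcn5 on the same strand as the gene, in the order Mir532, Mir188, Mir362, Mir501, and Mir500. The run covers 11542 bases of the X chromosome (GRCr8, chrX:17919185-17930726, plus strand). Mir532 and Mir188 are 321 bases apart, a gap of 6820 bases follows, and Mir362 and Mir501 are 639 bases apart with Mir500 another 3374 bases on. The table of counts carries no positions, and its genome build is not given in the sources used here.

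**Figure D1:**
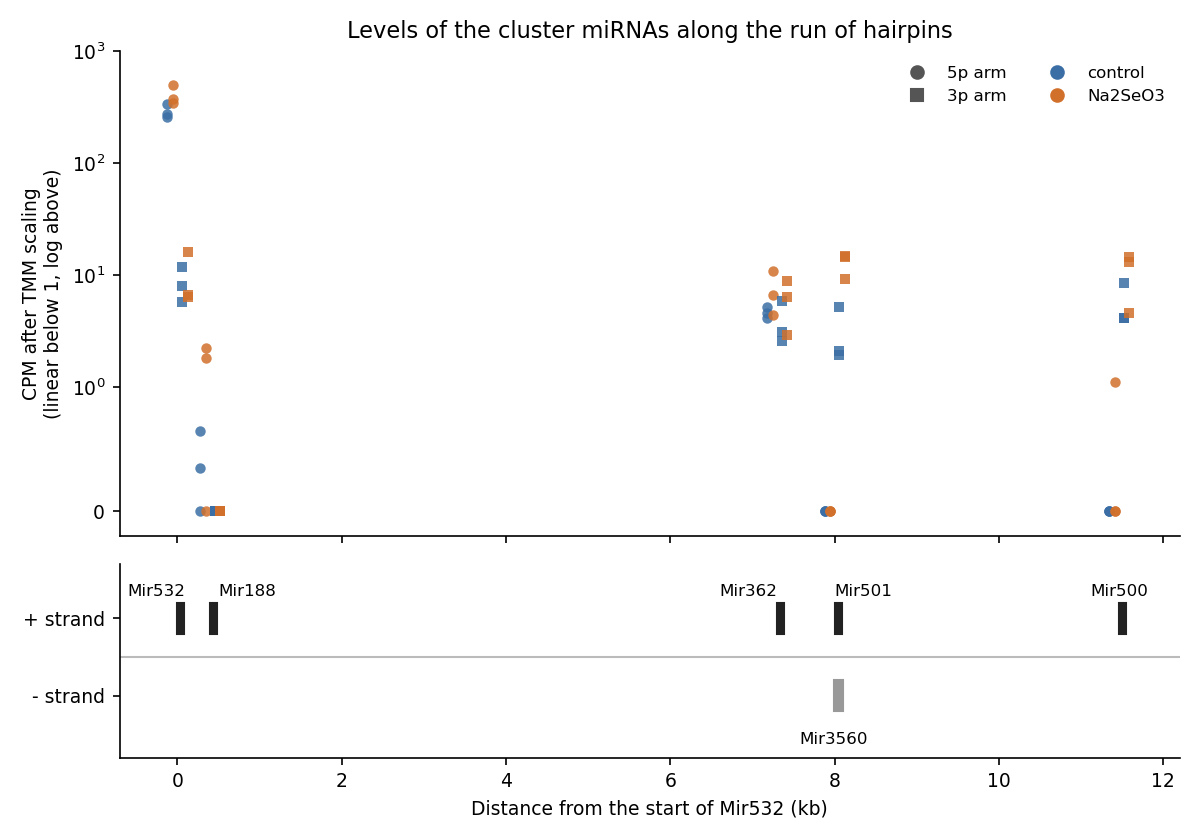
Upper panel: level of each arm in each library (CPM after TMM scaling, linear below 1 and logarithmic above) against the distance from the start of Mir532 in kb. Lower panel: the hairpins by strand. Mir532 stands far above the others through its 5p arm (254 to 498 CPM), and no arm of the other hairpins exceeded 14.6 CPM in a library.

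The sequences show which members share a seed and which could be confused in counting. Mature sequences were found in RefSeq (GRCr8) for 9 of the 10 names, and miR-362-5p is named only. They are written 5′ to 3′ with the seed in capitals, the members with the same seed first.
miR-501-3p: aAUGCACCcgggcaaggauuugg
miR-500-3p: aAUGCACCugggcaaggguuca
miR-532-5p: cAUGCCUUgaguguaggacugu
miR-532-3p: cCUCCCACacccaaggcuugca
miR-362-3p: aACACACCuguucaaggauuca
miR-188-5p: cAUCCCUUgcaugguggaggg

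The pair miR-501-3p and miR-500-3p shares the seed AUGCACC. Counted from the 5′ end of miR-501-3p, the 22 bases they have in common differ in 4 substitutions, C9U, A18G, U21C, and G22A, none of them in the seed. Each is the closest rat mature sequence to the other, so reads with errors could be counted under the wrong name, and how the authors' counting handled this is not given in the sources used here. The 5p arms miR-501-5p and miR-500-5p have different seeds (AUCCUUU and AUCCUUG). The 2 hairpins are shown with both arms in capitals, because their reads fall almost entirely on the right-hand arm.
Mir501: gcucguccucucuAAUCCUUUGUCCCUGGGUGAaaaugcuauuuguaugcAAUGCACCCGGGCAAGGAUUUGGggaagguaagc
Mir500: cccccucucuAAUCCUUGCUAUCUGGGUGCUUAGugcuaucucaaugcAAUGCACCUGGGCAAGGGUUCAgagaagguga

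A further hairpin, Mir3560, lies across Mir501 on the opposite strand. Its mature form is antisense to miR-501-3p over 22 bases, and it had 0 counts in all 6 libraries.
miR-3560: cAAAUCCUugcccgggugcauu

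The member counted by far the most was miR-532-5p, a miRNA studied mainly in melanoma and other tumours. It held 2880 of the counts over the 6 libraries and ranked 99 by mean level among the 341 miRNAs tested. The control libraries held 790, 491, and 515 counts, and the Na2SeO3 libraries 253, 378, and 453. After scaling, these were 273, 254, and 333 CPM in the control group and 368, 343, and 498 CPM in the Na2SeO3 group. Every Na2SeO3 library lay above every control library, by a narrow margin, as was the case upward in 25.2% of all miRNAs tested and in either direction in 46.3%. The group means were 287 ± 41.4 and 403 ± 83.2 CPM (SD, n = 3 each). The log2 fold change was 0.49 (SE 0.18, 95% interval 0.10 to 0.89), and a value as high or higher was found in 26.7% of the miRNAs tested. With Benjamini-Hochberg adjustment over the 341 miRNAs, edgeR's quasi-likelihood test gave it an adjusted p of 0.0521, just short of the threshold of 0.05. Over the alternatives the adjusted p ranged from 0.00674 to 0.186. It passed without control library 3 (adjusted p = 0.0485), without Na2SeO3 library 1 (0.0200), and without Na2SeO3 library 2 (0.00896, edgeR), and it also passed with library size only as the scale.

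The other arm of the same hairpin, miR-532-3p, gave no difference between the groups that these counts could show. Its counts were 23, 11, and 18 in the control libraries and 11, 7, and 6 in the Na2SeO3 libraries. As CPM these were 7.95, 5.69, and 11.6 against 16.0, 6.35, and 6.60, so that the groups overlapped and Na2SeO3 library 1 stood above the rest. The log2 fold change was 0.14 (SE 0.48; adjusted p = 0.847, edgeR), with a 95% interval of -0.89 to 1.17 that leaves room for a doubling as well as for a fall. The sign turned without control library 2 (-0.06) or without Na2SeO3 library 1 (-0.37).

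Counts of miR-501-3p, a miRNA known from synapses of neurons, were low in both groups. They were 6, 10, and 3 in the control libraries and 10, 10, and 13 in the Na2SeO3 libraries, although the Na2SeO3 libraries held fewer counts in all. After scaling the levels were 2.07, 5.17, and 1.94 CPM in the control group and 14.6, 9.08, and 14.3 CPM in the Na2SeO3 group. The groups did not overlap, and the lowest Na2SeO3 library lay above the highest control library. Group means were 3.06 ± 1.83 and 12.6 ± 3.09 CPM (SD, n = 3 each), and the fit put the log2 fold change at 2.01 (SE 0.52). The name entered the fit through the Na2SeO3 libraries only. All 3 of these reached the 7.21 CPM (of summed counts) that the filter asked for, and 0 of the control libraries did, so a name kept in this way had to differ. Without control library 2 the log2 fold change was 2.56.

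**Figure D2:**
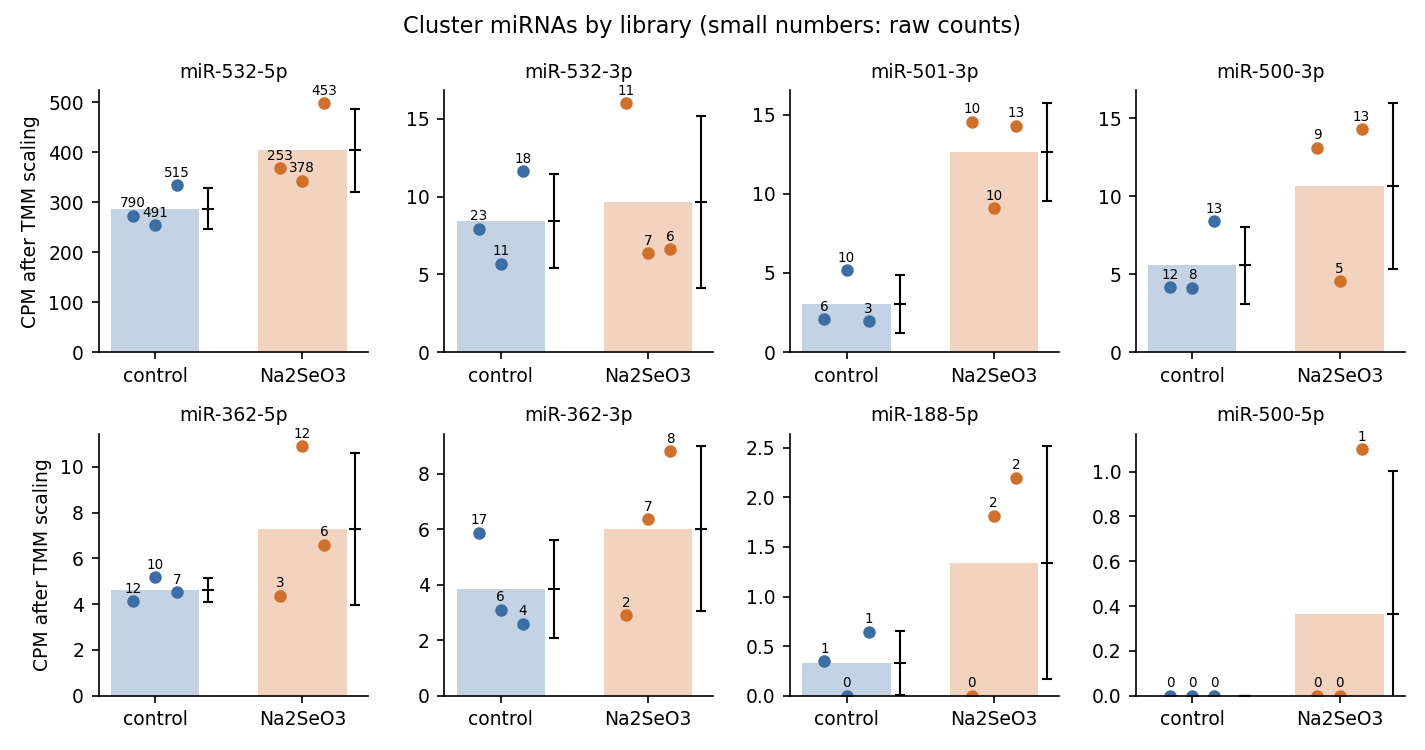
Level of the 8 counted cluster miRNAs in each library (CPM after TMM scaling, one panel per miRNA with its own axis from 0). Points are libraries 1 to 3 from left to right with raw counts above them, columns are group means, and the bars beside them are the SD (n = 3), which run below the axis where the SD exceeds the mean. Groups are apart in miR-501-3p, which was chosen for its rise, and in 1 of the other 7, miR-532-5p, while 25.2% of all miRNAs tested were apart upward and 46.3% either way.

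The seed partner miR-500-3p was counted at a like level. Its counts were 12, 8, and 13 in the control libraries and 9, 5, and 13 in the Na2SeO3 libraries. The scaled levels were 4.15, 4.14, and 8.41 CPM against 13.1, 4.54, and 14.3 CPM. Na2SeO3 library 2 lay among the control libraries and the other two lay above them (p = 0.2, exact permutation test with 3 libraries per group). With the names miR-500-3p and miR-501-3p summed, a step chosen after the data were seen, the libraries held 18, 18, and 16 counts in the control group and 19, 15, and 26 in the Na2SeO3 group. As CPM the sum was 8.63 ± 2.15 and 23.3 ± 8.39 (SD, n = 3 each), and again the groups did not overlap. This sum contains miR-501-3p and is a description as well.

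The 2 arms of miR-362, a hairpin 639 bases upstream of Mir501, were both near the limit of counting. The 5p arm had 12, 10, and 7 counts in the control libraries and 3, 12, and 6 in the Na2SeO3 libraries, or 4.62 ± 0.52 and 7.29 ± 3.32 CPM (SD, n = 3 each; p = 0.3, exact permutation test). The 3p arm had 17, 6, and 4 counts and then 2, 7, and 8, or 3.85 ± 1.77 and 6.02 ± 2.96 CPM (SD, n = 3 each; p = 0.3, exact permutation test). The groups overlapped in both arms. For miR-188-5p, known from bone marrow stromal cells, 1, 0, and 1 counts stood against 0, 2, and 2, and miR-500-5p had a single count, in Na2SeO3 library 3. The names with no count could still be present at up to 3 counts per library, which is 1.06 to 1.66 CPM of summed counts in the control libraries and 3.10 to 4.52 CPM in the Na2SeO3 libraries. These limits cover counting error only, as PCR copies of a molecule could not be told from separate molecules.

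Of the 10 members, 3 passed the filter on low counts (miR-532-5p, miR-532-3p, and miR-501-3p). The last of these was chosen for its rise and entered the fit through the Na2SeO3 libraries only, so it is not counted here. Of the other 2, 0 were differentially expressed miRNAs (DEmiRNAs) in edgeR's quasi-likelihood test, DESeq2, or limma-voom. The thresholds were those of the methods (adjusted p of 0.05, log2 fold change of 1 either way). Among all 341 miRNAs tested, 56 were DEmiRNAs in edgeR (16.4%), 46 in DESeq2, and 55 in limma-voom. At an unadjusted p of 0.05, 1 of the 2 passed, miR-532-5p, against 44.3% of all miRNAs tested. A lower filter, with a minimum count of 3, kept 424 names and admitted 3 more members. Their log2 fold changes were 0.90 for miR-500-3p (95% interval -0.20 to 2.0, adjusted p = 0.217), 0.70 for miR-362-5p (-0.32 to 1.71, adjusted p = 0.309), and 0.56 for miR-362-3p (-0.65 to 1.78, adjusted p = 0.50, edgeR). None of the 3 passed, and each interval holds both 0 and a rise of more than 1 on the log2 scale. For each of these members taken singly, a rise was not detectable at this depth.

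**Figure D3:**
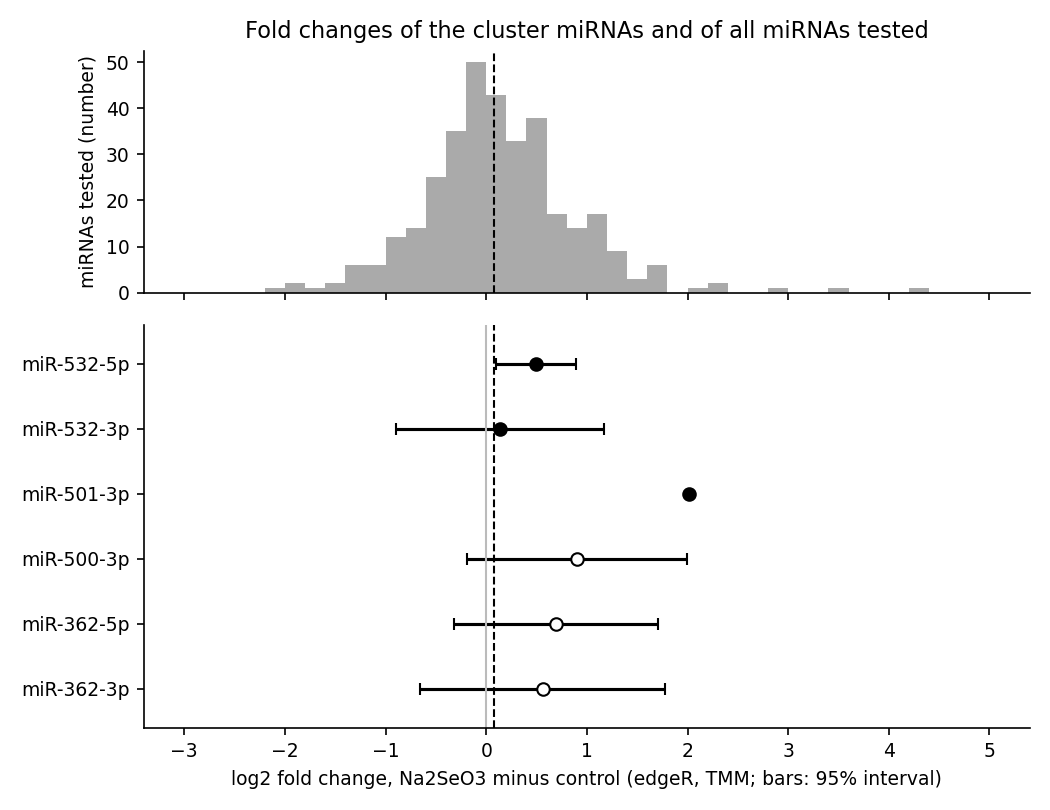
Upper panel: log2 fold changes (Na2SeO3 minus control, edgeR with TMM scaling) of the 341 miRNAs tested, with their median of 0.08 dashed. Lower panel: the cluster miRNAs, filled from the fit of 341 miRNAs and open from the fit with a minimum count of 3, with bars for the 95% interval (none drawn for miR-501-3p, which was chosen for its rise). Under this scaling the 5 points with bars lie above 0, as did 187 of all 341 miRNAs tested, and the interval leaves out 0 for miR-532-5p alone among the 5 drawn.

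Summed over all members but miR-501-3p, the cluster had levels of 295, 272, and 361 CPM in the control libraries and 405, 373, and 538 CPM in the Na2SeO3 libraries. The groups did not overlap, with means of 310 ± 46.2 and 439 ± 87.4 CPM (SD, n = 3 each). Because miR-532-5p made up most of that sum, it was also taken without it. The remaining members reached 22.5, 18.1, and 27.8 CPM in the control libraries and 36.4, 30.0, and 39.6 CPM in the Na2SeO3 libraries, and the groups were apart once more. Groups that do not overlap were common in this table, upward in 25.2% and in either direction in 46.3% of the single miRNAs tested, so nothing particular to the cluster is read from these sums. Per raw read the first sum turned from 0.50 to -0.65 (log2 ratio, Na2SeO3 to control).

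The direction of these levels depended on the scale. Counted miRNA reads are only a part of each library. With all raw reads of a library as its size, the log2 fold change was -0.66 for miR-532-5p (adjusted p = 0.0790), -0.99 for miR-532-3p (adjusted p = 0.107, edgeR), and 0.89 for miR-501-3p. On that scale the median of all 341 miRNAs tested was -1.07, compared with 0.08 under TMM. Set against the median, miR-532-5p stood at 0.41 under TMM and 0.40 per raw read. The difference from the median was likewise 1.93 and 1.96 for miR-501-3p and 0.06 and 0.07 for miR-532-3p. A change of library size moves all miRNAs by about the same amount, so these differences were bound to stay close and are no check of the result. A value above 0 for miR-532-5p held only relative to the other miRNAs counted.

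**Figure D4:**
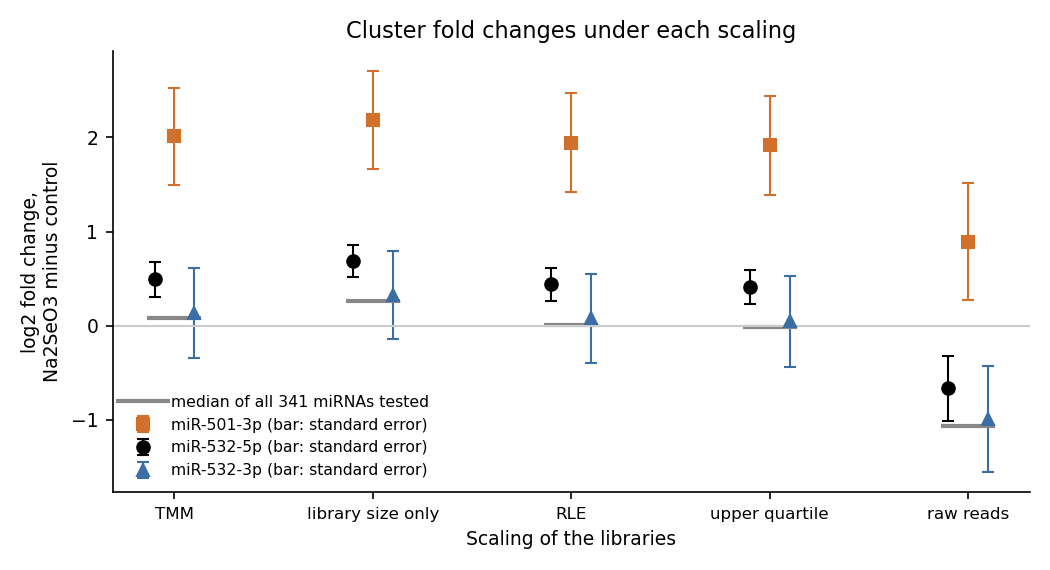
Log2 fold change (Na2SeO3 minus control) of the 3 cluster miRNAs tested under 5 ways of scaling the libraries, with bars for the standard error, and the median of all 341 miRNAs tested as a grey line. All 3 miRNAs move down with the median when raw reads are the library size, and miR-501-3p alone of the 3 stays above 0.

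A comparison within the cluster needs no scaling, since both counts come from one library. Per 1000 counts of miR-532-5p, a denominator chosen after the data were seen, miR-501-3p had 7.59, 20.4, and 5.83 counts in the control libraries and 39.5, 26.5, and 28.7 in the Na2SeO3 libraries. The groups were apart, at 11.3 ± 7.93 and 31.6 ± 6.99 (SD, n = 3 each). Because miR-501-3p was chosen for its rise, this separation is a description and no check of it. The exact binomial 95% interval of control library 2 was 9.71 to 37.8 and that of Na2SeO3 library 2 was 12.6 to 49.2, so these libraries overlap within counting error. For miR-500-3p the values were 18.9 ± 5.51 and 25.8 ± 11.4 (SD, n = 3 each; p = 0.4, exact permutation test), and the groups overlapped. The other 3 members differed less, with 28.8 ± 6.28 and 25.1 ± 16.1 for miR-532-3p (p = 0.7, exact permutation test). The values of miR-362-5p were 16.4 ± 3.54 and 18.9 ± 11.1 (SD, n = 3 each; p = 1, exact permutation test), and those of miR-362-3p were 13.8 ± 7.02 and 14.7 ± 5.90 (SD, n = 3 each; p = 0.9, exact permutation test).

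**Figure D5:**
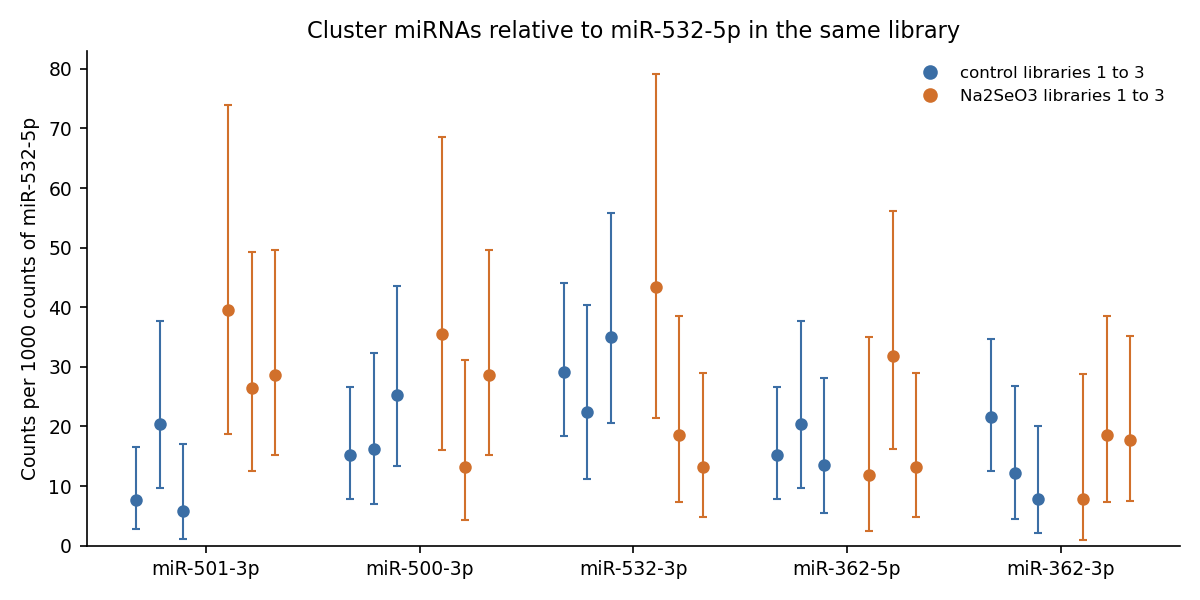
Counts of 5 cluster miRNAs per 1000 counts of miR-532-5p in the same library, with exact binomial 95% intervals that cover counting error only. The 3 Na2SeO3 libraries lie at 26.5 to 39.5 and the control libraries at 5.83 to 20.4 for miR-501-3p, which was chosen for its rise. The groups overlap for the other 4 miRNAs, which were taken by name.

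Arm use in each hairpin was read as the share of its counts on the 5p arm. In Mir532 it was 97.2% ± 0.59 in the control group and 97.6% ± 1.52 in the Na2SeO3 group (SD, n = 3 each; p = 0.7, exact permutation test), with 2880 of 2956 counts on the 5p arm over all libraries (97.4%, exact binomial 95% interval 96.8 to 98.0). In Mir362 both arms were kept alike, at 55.8% ± 12.5 and 55.3% ± 10.9 (SD, n = 3 each; p = 0.9, exact permutation test), with 50 of 94 counts on the 5p arm over all libraries (53.2%, interval 42.6 to 63.6). Mir501 and Mir500 were read from the 3p arm, with 0 of 52 counts (which allows a share of up to 5.77% at 3 counts, and up to 6.85% by the exact interval) and 1 of 61 counts (1.64%, interval 0.04 to 8.80) on the 5p arm. All 6 counts of Mir188 were on the 5p arm. Between the groups no difference in arm use was detectable in Mir532, and in Mir362 the counts were too few to show one, with 5 counts in Na2SeO3 library 1 (60.0%, interval 14.7 to 94.7).

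Among the names matched to a RefSeq sequence, 2 miRNAs outside the cluster carry the seed of a member with a sequence. The first, miR-329-3p of the Dlk1-Dio3 cluster, has the seed ACACACC of miR-362-3p. Its levels were 61.5, 58.4, and 48.5 CPM in the control libraries and 87.4, 125, and 89.1 CPM in the Na2SeO3 libraries. It passed an adjusted p-value of 0.05, as 34.6% of all miRNAs tested did, at 0.84 on the log2 scale (SE 0.21; adjusted p = 0.00754, edgeR), and was at -0.32 per raw read. Its level thus exceeded that of miR-362-3p, at 3.85 and 6.02 CPM, in both groups. The second, miR-511-5p, has the seed AUGCCUU of miR-532-5p and was counted 0 to 2 times per library.

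Other miRNAs whose genes all lie on the X chromosome were taken as a list by position, with 32 tested outside the cluster. Of these, 10 passed an adjusted p-value of 0.05 (8 higher and 2 lower in the Na2SeO3 group), beside 118 of all 341 (34.6%, 71 higher and 47 lower), and 4 were DEmiRNAs, all higher, compared with 56 DEmiRNAs (39 higher and 17 lower) among the 341. With RLE or upper-quartile scaling 3 of the 32 were DEmiRNAs, beside 52 and 54 of all 341. With library size alone 5 were, beside 63 of the 341. The median log2 fold change of the list was -0.02, beside 0.08 over all miRNAs tested, and 15 of the 32 were above 0, beside 187 of the 341. The highest were miR-98-3p (log2 fold change 1.60), from an intron of Huwe1, and miR-542-3p (1.31, adjusted p = 6.61e-04) and miR-351-5p (1.31, adjusted p = 1.55e-04, edgeR), which belong to the cell cycle-linked miR-322 and miR-503 cluster. The levels of miR-98-3p were 4.84, 3.62, and 4.53 CPM in the control libraries and 11.6, 10.9, and 17.6 CPM in the Na2SeO3 libraries, so that, like miR-501-3p, it entered the fit through the Na2SeO3 libraries only and had to differ. The fourth was miR-450a-5p of the same cluster, at 1.01 (adjusted p = 0.00335, edgeR). It lies outside the rule for names, fell short of the threshold of 1 with RLE (0.95) and upper-quartile scaling (0.92), and was at -0.15 per raw read. The lowest were miR-222-3p (-0.81, adjusted p = 0.00827), the growth-linked partner of miR-221, miR-672-5p (-0.79, adjusted p = 0.0869), and let-7f-2-3p (-0.71, adjusted p = 0.0870, edgeR). Per raw read the list had 0 higher and 18 lower DEmiRNAs, beside 6 higher and 176 lower among all 341. Its median was then -1.17, beside -1.07 for all.

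Across the 6 libraries, the rat miRNAs whose log2 CPM followed miR-532-5p most closely were miR-127-5p (Pearson r = 0.94), miR-598-3p (0.92), and miR-488-3p (0.92). Levels of miR-127-5p, a Dlk1-Dio3 miRNA, were 86.4, 91.5, and 115 CPM in the control libraries and 159, 152, and 195 CPM in the Na2SeO3 libraries, so that library 3 was highest in both groups, as it was for miR-532-5p. For miR-501-3p the closest were miR-485-5p (0.98), miR-540-3p (0.97), and the muscle miRNA miR-1-3p (0.96). The last was at 4671, 6098, and 5535 CPM in the control libraries and 8703, 8376, and 9278 CPM in the Na2SeO3 libraries. Levels of miR-540-3p were 4.49, 5.69, and 2.59 CPM in the control libraries and 16.0, 13.6, and 16.5 CPM in the Na2SeO3 libraries. Like miR-501-3p, it entered the fit through the Na2SeO3 libraries only and had to differ. With 6 points in 2 groups that share their libraries and scaling, these values describe likeness only. With a prior count of 0.5 in place of 2, all 3 names were the same for miR-532-5p and 2 of the 3 for miR-501-3p.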

How the data were processed

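Small RNA libraries of 3 control and 3 Na2SeO3 rat pups were compared, with WT and Model in the sample titles read as these groups. Reads were cleaned by the authors (Cutadapt, Fqtrim, FastQC) and placed on the Ensembl rat genome (miRDeep, with HISAT2 also named), and raw read counts per miRNA name were deposited. Build and versions are not given in the sources used here. Names were filtered with filterByExpr (minimum count 10; 341 of 910 kept), scaled with TMM, and fitted in edgeR (quasi-likelihood F test) with group as the only factor. Standard errors came from the F statistic. DEmiRNAs had an adjusted p under 0.05 and a log2 fold change beyond 1 either way, as in the methods. Log2 CPM used a prior count of 2. For measures with a single number per library, exact permutation tests (two-sided) were used, which with 3 against 3 cannot go below p = 0.1. Single libraries were left out with the 341 names kept. No pair of libraries looked like copies (chi-square at least 28.0 times its degrees of freedom). The procedure was tested on simulated data. The software was edgeR 4.0.16, DESeq2 1.42.0, and limma 3.58.1 under R 4.3.3.

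The members and lists were chosen with earlier results of these data known. Names given are all members, miRNAs sharing a seed, the 3 X-linked miRNAs at either end, and the 3 closest in pattern to miR-532-5p and miR-501-3p. Sequences and positions are from RefSeq (GRCr8), which held 296 of the 326 rat miRNAs tested. Of the other lists of cell type marks, erythroid miRNAs summed to 246 to 300.5 CPM in the control and 394 to 511 CPM in the Na2SeO3 libraries, neural and glial ones to 28124 to 35394 and 34737 to 44741, leukocyte ones to 136 to 171 and 103 to 159, and endothelial ones to 20586 to 26070 and 25203 to 30518. Results per raw read used the read numbers listed in the paper. Host gene mRNA is not analysed here.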

Additional observations from a re-analysis of the deposited data

How the results depend on the processing

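The number of DEmiRNAs over the whole table was 56, and it moved to 182 with raw reads as the library size (6 higher and 176 lower) and to 118 with the adjusted p-value alone. Library size only gave 53 higher and 10 lower. With miR-501-3p left out of the count, the number of DEmiRNAs in the cluster stayed at 0 under each alternative run. For miR-532-5p the log2 fold change was 0.69 with library size only (adjusted p = 0.00674), 0.48 with at least 10 counts in every library (0.0425), 0.47 with rat names only (0.0427, edgeR), -0.66 per raw read, and 0.34 to 0.63 with each library left out. For miR-532-3p it was -0.99 per raw read and -0.37 to 0.42 with each library left out. For miR-501-3p it was 0.89 per raw read and 1.72 to 2.56 with each library left out. The summed level of the cluster turned from 0.50 to -0.65 (log2 ratio) per raw read. Per count of miR-532-5p the log2 ratio of miR-532-3p turned to -0.20. With a library left out, the difference in the 5p share ranged from -0.19 to 1.24 points in Mir532 and from -7.73 to 5.74 points in Mir362. The names miR-532-3p and miR-501-3p could not be tested with 10 counts in every library. Libraries are numbered 1 to 3 in both groups. Deviations of same-numbered libraries from the group means correlated at -0.17, -0.18, and -0.26. These values gave no sign of pairing by number, but they are too few to exclude it. With the replicate block 49 DEmiRNAs were called, and miR-532-5p was at 0.48 (adjusted p = 0.0573, edgeR). Counts of at most 23 per library limit each member other than miR-532-5p.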
